A study of Mus musculus with 2 samples.

Results

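Tetraspanins are small membrane proteins that cross the membrane several times, carry a large extracellular loop with a conserved Cys-Cys-Gly turn, and bind each other and neighbouring receptors, integrins and proteases. Through these contacts they organise membrane patches that bear on adhesion, receptor transport and the sorting of proteins into endosomes and secreted vesicles. In eosinophils, granulocytes that live in the gut wall in health, Cd63 is best known as a membrane protein of granules that reaches the surface on degranulation, and Cd9 as a surface protein that helps to tell human blood eosinophils from neutrophils. The family was taken by gene symbol. It holds every gene named Tspan followed by a digit, together with Cd9, Cd37, Cd53, Cd63, Cd81, Cd82, Cd151, Prph2, Rom1, Upk1a and Upk1b. The symbol rule itself used no measured values, but members and lists were chosen with earlier results of these data known. The rule gave 31 of the 23456 genes in the table, with 1 transcript kept for each, the one with the most reads.

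The study holds 1 group of 2 samples: colonic eosinophils of naive wild-type C57BL6 mice, isolated by flow cytometry after the colon had been digested with enzymes. How many mice were used, their age and the sort gate are not stated in the sources at hand. The assay was CEL-Seq, a method that sequences a tag close to the 3′ end of polyadenylated RNA, with 3 technical libraries per sample. For each transcript the table holds a read total and an RPKM, the reads per transcript kilobase and per 1000000 reads; both are the authors' means over what the read totals show to be 6 libraries. Values per sample were not analysed here, so there is no SD and no test. The range after an RPKM is the exact 95% Poisson interval of the summed reads of the 6 libraries, rescaled by the gene's RPKM per read. It is exact for the reads and approximate for the RPKM, since a mean RPKM over libraries need not follow their summed reads. It covers counting error only, and reads copied from 1 molecule by amplification are not told apart.

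The family is recognisable in its coding sequence. Codons for Cys-Cys-Gly were searched in frame on the coding strand as TGCTGCGG, TGCTGTGG, TGTTGCGG or TGTTGTGG followed by any base. They were found in 31 of 31 members, against 553 of 21814 coding genes (2.54%), the members included. In 29 of the 31 the turn began between codons 120 and 170. For the 7 members with 2 copies, the copy nearest to codon 153 was counted, which favours this range. The exceptions were the short kept form of Tspan32, with 167 codons and the turn at codon 94, and Tspan10, with the turn at codon 211. The stretches below are from GENCODE M21 transcripts (GRCm38, the build of mm10), in the sense of the transcript, with the Cys-Cys-Gly codons in capitals. The first 7 belong to the highest members, and Tspan5 is the highest of the TspanC8 group described below. Prph2 and Tspan10 are the members listed at 0.
Cd9: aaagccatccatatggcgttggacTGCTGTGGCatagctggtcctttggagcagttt
Cd37: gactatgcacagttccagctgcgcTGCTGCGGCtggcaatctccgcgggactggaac
Cd53: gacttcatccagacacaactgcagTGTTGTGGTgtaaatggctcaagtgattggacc
Cd63: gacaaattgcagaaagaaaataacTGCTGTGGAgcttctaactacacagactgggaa
Tspan13: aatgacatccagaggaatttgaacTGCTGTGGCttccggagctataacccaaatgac
Cd151: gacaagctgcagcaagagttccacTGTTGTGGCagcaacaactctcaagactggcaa
Cd81: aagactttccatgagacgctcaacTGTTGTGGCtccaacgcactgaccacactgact
Tspan5: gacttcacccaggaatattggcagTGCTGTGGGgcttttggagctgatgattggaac
Prph2: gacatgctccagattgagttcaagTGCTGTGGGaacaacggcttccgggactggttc
Tspan10: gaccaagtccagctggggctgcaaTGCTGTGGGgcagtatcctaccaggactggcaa

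By RPKM, the tetraspanin mRNA of these samples was mostly that of a few members of the role list named leukocyte. That list holds Cd9, Cd37, Cd53, Cd63, Cd81, Cd82, Cd151 and Tspan32, which are not all restricted to white blood cells. Of the 31 members, 20 (64.5%) had an RPKM of at least 1, against 31.0% of all genes and 34.2% of genes with a coding transcript. Reads were present for 29 members, against 69.1% of all genes, an RPKM of 5 or more was found for 14, against 14.2%, and one of 100 or more for 3, against 1.28%. The median RPKM was 2.59, against 0.186 over all genes. The 5 highest members, Cd9, Cd37, Cd53, Cd63 and Tspan13, held 92.1% of the summed RPKM of the family, and Cd9 and Cd37 alone held 76.0%. In all, the family had 37515 reads over the 6 libraries, which is 0.488% of the 7692387 reads on genes. From the highest to the lowest member above 0, the RPKM differed by 23710 times, the lower end resting on 1 read.

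**Figure D1:**
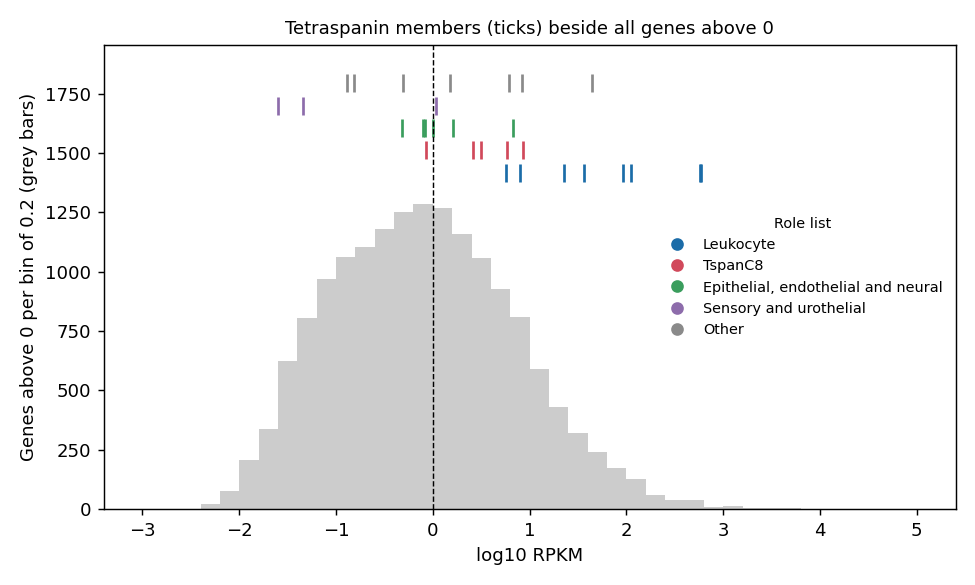
Histogram (grey) of log10 RPKM of the 16204 genes above 0, with a tick for each of the 29 members above 0 in 1 line per role list; the dashed line is an RPKM of 1. All 8 leukocyte ticks lie to the right of the line, at or above the 5.77 of Cd82.

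Among the leukocyte tetraspanins, 8 of 8 had an RPKM of at least 1, against 31.0% of all genes. Their median was 64.9, against 0.186 over all genes. Cd9, which associates with integrins and with the growth factor precursor Hbegf, had an RPKM of 596 (585 to 608) from 10316 reads. Cd37, a tetraspanin largely restricted to white blood cells, had 582 (572 to 591) from 14501 reads. The intervals of both overlap, and they ranked 43 and 44 among all genes by RPKM. In the mm10 coordinates of the table, Cd9 lies on the minus strand at chr6:125460267-125494755 and Cd37 on the minus strand at chr7:45233633-45238839.

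Cd53, also a tetraspanin of white blood cells, stood apart below them at 112 (109 to 115) from 5145 reads. Cd9 was 5.31 times and Cd37 5.19 times as high as Cd53 in RPKM. In RPM, the reads per 1000000 reads on genes without length, Cd53 had 669, and these ratios were 2.01 and 2.82. Cd63, the granule and late endosome member, followed at 93.2 (88.4 to 98.2) from 1425 reads. Its interval did not overlap that of Cd53 above it or that of Tspan13 below it. Of the last 500 bases of the Cd63 transcript, 63.7% of the 35-base words also occur in a transcript of its pseudogene Cd63-ps, so its level is uncertain. It was the single member with 50% or more shared words, and 27 of 31 members shared none. Cd53 lies on the minus strand at chr3:106758862-106790149 and the kept Cd63 transcript on the plus strand at chr10:128909867-128912818.

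The other leukocyte members were lower. Cd151, a partner of laminin-binding integrins, had an RPKM of 36.5 (34.4 to 38.7) from 1172 reads. Cd81, a widely expressed tetraspanin first known from lymphocytes, had 22.7 (21.0 to 24.5) from 638 reads. Cd9 was 26.3 times as high as Cd81 in RPKM and 16.2 times in RPM. Tspan32, a tetraspanin of blood cells, stood at 7.89 (6.84 to 9.06), and Cd82, which regulates integrin-dependent adhesion, at 5.77 (5.002 to 6.62), each from 202 reads. Of the 8, Tspan32 and Cd82 were the members under an RPKM of 10.

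The TspanC8 tetraspanins escort the protease Adam10, which sheds Notch and other surface proteins, out of the endoplasmic reticulum and steer what it cuts. In this group 4 of 6 had an RPKM of at least 1, against 31.0% of all genes. The median was 2.88, against 0.186 over all genes. Tspan5 had 8.51 (7.80 to 9.26) from 536 reads, Tspan17 5.81 (4.96 to 6.75) from 169, Tspan14 3.18 (2.70 to 3.73) from 153 and Tspan15 2.59 (2.19 to 3.04) from 149. The intervals of Tspan5 and Tspan17 do not overlap, and those of Tspan14 and Tspan15 do. Tspan33 had 0.848 (0.588 to 1.19) from 34 reads. Tspan10, known from pigment cells of the eye, was listed at 0. For a count of 0 over the 6 libraries, the limit given is one-sided, unlike the intervals, and is 3 reads or 0.390 RPM. The 4 escorts past the threshold thus lay between 2.59 and 8.51, all below the 22.7 of Cd81.

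Outside these groups, Tspan13 was the highest. It had 44.2 (42.0 to 46.5) from 1474 reads, above Cd151 and Cd81, and lies on the minus strand at chr12:36014556-36042478. Tspan9, a tetraspanin known from platelets, had 8.30 (7.67 to 8.97) from 640 reads, and Tspan3 had 6.07 (5.23 to 6.999) from 188. Tspan4, a tetraspanin of the migration tracks that cells leave behind, was near the threshold at 1.49 (1.07 to 2.01). Tspan31, Tspan11 and Tspan18 stayed below it at 0.496, 0.154 and 0.131, from 16, 18 and 6 reads. The last 500 bases of Tspan31 lie wholly within exons of Cdk4 on the opposite strand, and 286 of those of Tspan4 within exons of Chid1. Cdk4 had an RPKM of 37.2. The use of strand in counting is not given, so reads of such partners cannot be told apart.

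Members best known from other tissues ranged from 0 to 6.80. Tspan1, an epithelial tetraspanin, was the highest of them at 6.80 (6.04 to 7.62) from 292 reads, with an interval that overlaps that of Cd82. Tspan8, which is abundant on gut epithelium, had 1.60 (1.10 to 2.26) from 32. Tspan6 stood at 1.01 (0.699 to 1.41), with an interval that spans the threshold. Tspan7 and Tspan2, both known from the nervous system, had 0.833 and 0.795, and Tspan12, a co-receptor of Norrin signalling in retinal vessels, 0.483. Upk1a, a uroplakin of the bladder lining, had 1.08 (0.704 to 1.58) from 26 reads. Upk1b and Rom1, the latter a photoreceptor disc protein, had 1 read each. Its partner Prph2 was listed at 0.

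By the rescaled counting intervals, the order was separated in its upper part. Between neighbours above 0, intervals overlapped in 20 of 28 pairs and did not in 8. The separated steps were those from Cd37 to Cd53, Cd63, Tspan13, Cd151, Cd81 and Tspan5 in turn, from Cd82 to Tspan14, and from Tspan12 to Tspan11. Within the run of 7 members from Tspan5 to Cd82, neighbours overlapped, and likewise from Tspan14 down to Tspan12. These are counting intervals, so the spread between mice or samples is not part of them. Nor is the number of reads that 1 unit of RPKM stood for, which differed between genes. It was 17.3 for Cd9 and 24.9 for Cd37, whose matched transcripts have 1228 and 1227 bases. Overlap or separation in RPKM is therefore stated for counting error only, and whether the order holds beyond it was not tested.

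**Figure D2:**
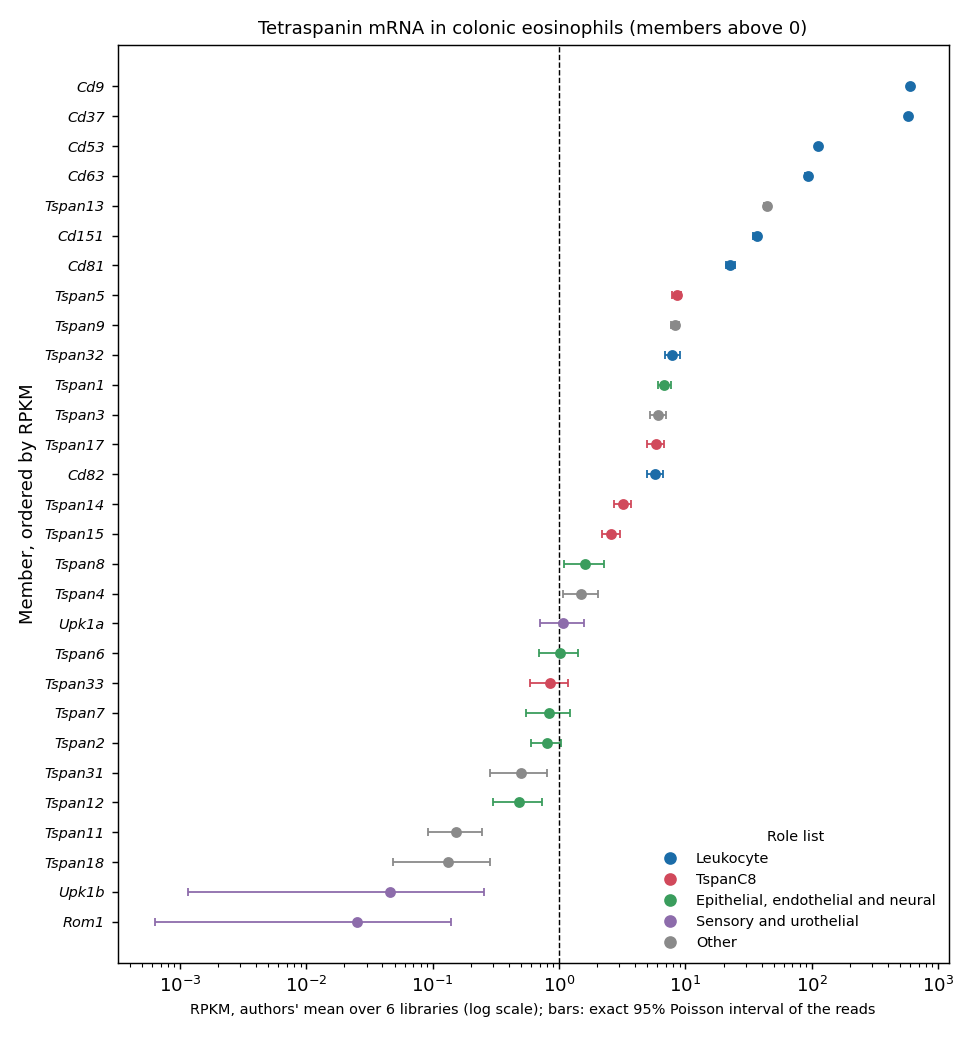
RPKM (log axis) of the 29 members above 0, ordered by level and coloured by role list; points are the authors' mean over 6 libraries, bars the exact 95% Poisson interval of the reads, and the dashed line an RPKM of 1. Cd9 at 596 and Cd37 at 582 stand together with overlapping intervals, and the intervals widen to the lower end, where Upk1b and Rom1 rest on 1 read each.

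The RPKM scale corrects for transcript length, which CEL-Seq tags do not depend on, since each molecule is read near its end. One unit of RPKM corresponded to 15.3 reads over the 6 libraries for Cd63 and 17.3 for Cd9, the lowest values among members above 0, and to 117 for Tspan11, the highest. The matched GENCODE transcripts of Cd9 and Cd37 have 1228 and 1227 bases, yet Cd37 had 24.9 reads per unit. Upk1b and Rom1, with 1 read each, had 22.0 and 39.8 at 1894 and 1517 bases. The 2 scales thus differed by more than these lengths, and the reason was not tested. On the RPM scale, Cd37 led the family with 1885 (1855 to 1916), ahead of Cd9 with 1341 (1315 to 1367). Their intervals did not overlap. Tspan13, at 192 RPM (182 to 202), then stood level with Cd63 at 185 (176 to 195). Tspan9 rose from place 9 by RPKM to place 7 by RPM, and Tspan2 from 23 to 17, whereas Tspan8 fell from 17 to 21 and Upk1a from 19 to 23. The order of Cd9 and Cd37 therefore depended on the scale, while Cd53 came next on both. At least 1 RPM was found for 26 members, against 50.9% of all genes.

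**Figure D3:**
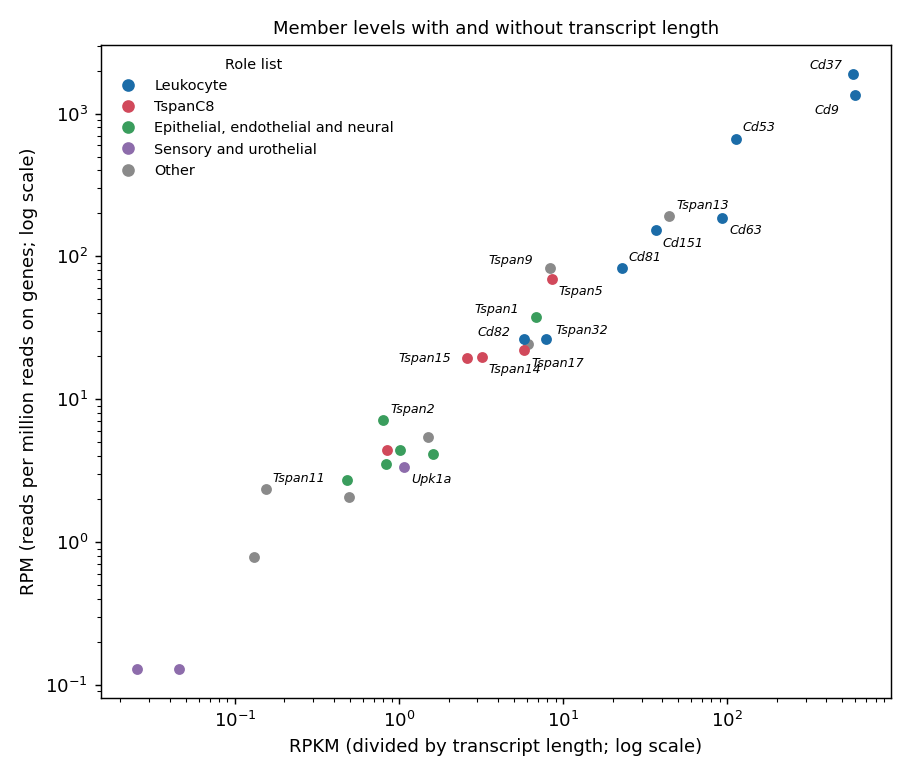
RPM (reads per 1000000 reads on genes, without length) against RPKM, both on log axes, for the 29 members above 0, coloured by role list. Cd37 lies above Cd9 on the RPM axis but not on the RPKM axis, and Tspan11, Tspan9 and Tspan2, with the most reads per unit of RPKM, lie above the run of the other points.

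Partner genes of tetraspanins were measured in the same libraries, from a list of 39. Of these, 30 had an RPKM of at least 1, against 31.0% of all genes. None was listed at 0, whereas 69.1% of all genes were above 0. The median was 8.88, against 0.186 over all genes. Among integrins, 8 of 9 reached an RPKM of 1, against 31.0% of all genes. Itgb2, the common chain of the leukocyte integrins, had 1291, Itgb7, part of the integrin that homes leukocytes to the gut, 176, Itgam 57.1 and Itga4, which pairs with Itgb7 or Itgb1, 17.3. The laminin-binding chain Itga3, a partner of Cd151, had 8.88, and Itga6, another, 0.439. Itgb1, which both pair with, had 12.7. Itgb2, Itgb7 and Itgam were thus above both laminin-binding chains.

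Of the receptors and growth factors that tetraspanins hold, 5 of 9 reached an RPKM of 1, against 31.0% of all genes. Cd44, the hyaluronan receptor, had 605, Epcam 89.3, Hbegf 22.6 and Cldn7 8.09. Clec7a, the beta-glucan receptor that Cd37 binds, had 7.41. Epcam and Cldn7 are epithelial proteins. All 3 class II genes were well above 1, with Cd74 at 507, H2-Ab1 at 136 and H2-Aa at 76.6. The linkers to actin, Ezr and Msn, had 100.4 and 17.9.

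For the endosome and vesicle partners of Cd63, 7 of 9 reached an RPKM of 1, against 31.0% of all genes. Lamp1, a major lysosome membrane protein, had 390, above Cd63 itself. Sdcbp, the adaptor syntenin that binds the tail of Cd63, had 22.0, Lamp2 9.84 and Rab27a, a small GTPase of granule docking, 3.31. Its close relative Rab27b had 1 read over the 6 libraries. Timp1, a ligand of Cd63, had 3 reads. The list thus ran from one of the 100 highest genes, Lamp1 at rank 76, to a gene with a single read.

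Adam10, the protease that the TspanC8 group escorts, had an RPKM of 2.15 and its relative Adam17 2.50, each from 173 reads. The transcript kept for Adam17 is a non-coding RefSeq form, so its RPKM is not that of a protease-coding transcript. Notch1 and Notch2, substrates of both proteases, had 10.9 and 9.86. In RPKM, the intervals of Tspan5, Tspan17 and Tspan14 lay above that of Adam10 (1.84 to 2.499). In RPM, Adam10 at 22.5 lay within the intervals of Tspan17 at 22.0 (18.8 to 25.5) and Tspan14 at 19.9 (16.9 to 23.3). It lay below that of Tspan5 at 69.7 (63.9 to 75.8). Adam10 was thus separated from Tspan17 and Tspan14 in RPKM but not in RPM. Among the immunoglobulin family partners, 1 of 3 reached an RPKM of 1, near the 31.0% of all genes. Igsf8, a direct partner of Cd9 and Cd81, had 13.1, whereas Ptgfrn, also a partner of both, had 0.574. The complement receptor Cr2 had 0.0702 from 6 reads.

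**Figure D4:**
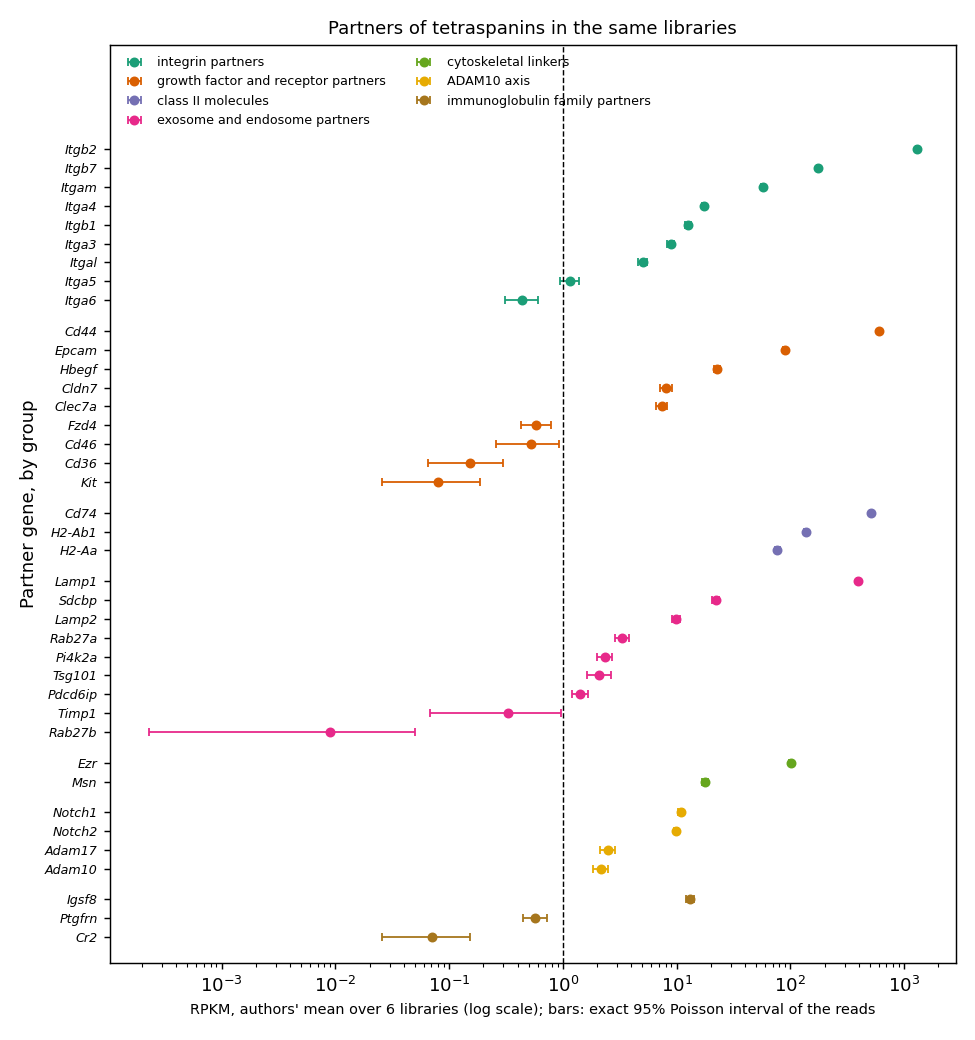
RPKM (log axis) of the 39 partner genes in 7 groups, with exact 95% Poisson intervals of the reads and a dashed line at an RPKM of 1. Itgb2, Cd44, Cd74 and Lamp1 are the highest of their groups at 1291, 605, 507 and 390, while Rab27b and Timp1 rest on 1 and 3 reads.

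Markers of other cell types were also measured, since those cells express some members too. For each marker count below, the share of all genes at an RPKM of at least 1 was 31.0%. Of the 7 eosinophil markers, 6 reached an RPKM of 1, with a summed RPKM of 511 and Epx below it at 0.265 from 11 reads. Epithelial markers reached it in 10 of 10, from 4.94 to 89.3, with a summed RPKM of 267, and goblet cell markers in 7 of 7, with a sum of 161. In a bulk sample, fewer cells of a type and less RNA per cell cannot be told apart. The part of epithelial RNA in the levels of Tspan1, Tspan8, Cd9, Cd151 and Tspan13 was not tested.

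Cd37, Cd53 and Cd81 are also known from B cells. Of 5 B cell markers, 1 reached an RPKM of 1, Cd79b at 1.15, the sum was 1.55, and Pax5 was listed at 0. T cell markers summed to 4.30, with 3 of 5 past the threshold. Neutrophil markers summed to 34.96, with 2 of 7 past it, S100a9 at 23.9 and S100a8 at 10.2. Mpo and Elane were listed at 0. Macrophage markers summed to 94.4, with 5 of 7 past it. These were Csf1r at 41.0, C1qb at 37.9, C1qc at 10.7, C1qa at 3.29 and Cd68 at 1.39, while Mertk was listed at 0. The part of these cells in the levels of the leukocyte members was not tested.

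Platelet and red cell markers reached an RPKM of 1 in 6 of 8, and 2 globin genes made up most of their sum of 1070. Of the searched words of these, Hba-a1 and Hbb-bs, 92.5% and 65.9% are also in another gene. The platelet chemokine genes Ppbp and Pf4 had 7.52 and 4.52 and Itga2b 19.1, while Gp9 was listed at 0. Gp1bb had 99.5, with 68.0% of its words shared. These values stand beside Cd9, Cd151, Tspan9 and Tspan33, which platelets express, and the part of platelet RNA in them was not tested. Endothelial markers reached it in 2 of 6, with Pecam1 at 16.3 and Kdr at 0.122. Fibroblast markers did so in 5 of 6, with a sum of 137, smooth muscle markers in 4 of 5, with a sum of 52.2, and markers of enteric glia and neurons in 1 of 4, with a sum of 2.72.

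Some members are neighbours in the genome. On the plus strand of chromosome 7, the kept transcript of Cd151 (chr7:141468790-141471481) ends 4899 bases before that of Tspan4 (chr7:141476381-141493427), and Cd151 was 24.5 times as high in RPKM. Tspan32 (chr7:143005660-143019485) ends 33265 bases before Cd81 (chr7:143052751-143067930), also on the plus strand, and had 0.348 times its RPKM. On chromosome 6, Tspan11 and Tspan9 are 8369 bases apart on opposite strands, and Tspan11 had 0.0185 times the RPKM of Tspan9, with 2.34 against 83.2 in RPM. In each of these 3 pairs the neighbours stood at unequal levels, with intervals that did not overlap.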

How the data were processed

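Sorted colonic eosinophils were profiled by CEL-Seq in 2 samples of 1 group, with 3 technical libraries per sample per the labels' protocols. The submitters' processing notes name STAR 2.4.2a, DESeq and the build mm10. No source at hand states the transcript lengths, the read counter, its use of strand or its rule for reads that align more than once. The RPKM values were computed by the authors, per the file headers, and are 1 value per RefSeq transcript for the whole group. The deposited read totals are a mean: 100% of them times 6 were whole within 0.001. The table had 0 columns of other samples.

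From the 31295 rows, current symbols were set through RefSeq accessions (GRCm38.p6) for 30726, and the row with the most reads was kept per gene, ties going to the higher RPKM. The family rule used the symbols of the table. Under current names 1 more row would match, the antisense RNA Tspan2os, with 1 read, and it is no member. The 23456 genes held 7692387 reads over the 6 libraries. Members and lists were chosen with earlier results of these data known. All members are accounted for, and from the partner list the highest of each group are named, with Itga3, Itga6, Itgb1, Clec7a, Rab27b and Timp1 added after their values were seen. The 95% intervals are exact Poisson intervals of the summed reads. Their coverage was checked on simulated Poisson counts, which tests the computation only. Mean RPKM values over several libraries and reads copied by amplification were not simulated. Shared words are 35-base words of the last 500 bases of a transcript also found in a GENCODE M21 transcript of another gene. Where a member had the Cys-Cys-Gly codons more than once, the copy nearest to codon 153 was counted and shown. That is the median position of members with 1 copy. No test was run, since there is 1 group with 1 value per gene. Alternatives were RPM, other rows per gene, other thresholds, rescaled RPKM and members without shared words. One gene of the partner and marker lists is not reported here. Protein sequences were not used here. Software versions were pandas 2.3.3, numpy 2.4.6, matplotlib 3.10.9 and scipy 1.17.1 under Python 3.11.15.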

Additional observations from a re-analysis of the deposited data

How the results depend on the processing

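Of 27 values under 7 alternatives, 22 moved by no more than their counting interval or, for counts, 1.5 times. The limit for counts is wide: the 20 members at the threshold could become 14 or 29 and pass. For the median, the interval was that of Tspan15 alone. The RPM median is in another unit than this interval, so its count as moved has no meaning. The 22 therefore do not measure how stable the results are. With RPM in place of RPKM, the median of the members was 19.4 RPM, beside 1.04 for all genes, and the 5 highest held 87.6%. Without Cd63, whose sequence is shared, the median RPKM was 2.10 and the 5 highest held 94.1%; members above Cd63 could then not be counted. At an RPKM of 5 or more, 2 TspanC8 members remained of 4, against 14.2% of all genes. The number of members at the threshold ran from 14 at an RPKM of 5, against 14.2% of all genes, to 29 above 0, against 69.1%, and was 25 with RPKM rescaled to a sum of 1000000, against 47.5%. The 3 members above Cd63 became 4 by RPM and 2 with all rows summed, which counts the reads of Cd63 more than once. The background of coding transcripts was added after seeing the data. No paired analysis was possible because the table holds 1 value per gene for 1 group. Leaving out each replicate was not run for the same reason. Depth limits the members under an RPKM of 1, of which 9 rest on 1 to 55 reads and 2 have none.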

Other observations

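Transcripts of 1 gene that end at the same 3′ base should be hard to tell apart by a 3′ tag, yet their deposited read totals often differed. The 31 members had 47 rows, and 7 members had more than 1. Of the 3 rows of Cd151, which share their last base, the one that starts farthest downstream had 1172 reads and the other two were listed at 0. Of the 7 rows of Cd82, 2 had 202 reads each and 5 were at 0, and of the 4 rows of Tspan32, 1 had 202, 1 had 20 and 2 were at 0. In contrast, both rows of Cd63 had 1425 reads. Over all genes with several rows, 1 common 3′ end and at least 60 reads on the highest row, 816 of 1268 (64.4%) had a row at 0, and in 268 (21.1%) every row had the same total. The cause was not tested. Prph2 and Tspan10, both listed at 0, have 1 row each.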
